A study of Homo sapiens with 10 samples.

Results

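The genes described here are YAP1 and WWTR1 (which encodes TAZ), the TEAD transcription factors TEAD1, TEAD2, TEAD3 and TEAD4, and the target genes CTGF, CYR61, AMOTL2 and LATS2. These 10 genes were found by their symbols among the 60554 genes of the deposited tables, and the estimated counts of all transcripts of a gene were added up. The libraries came from Caco-2, a human colon carcinoma line that can form a polarized epithelial layer. All cells carried dCas9-KRAB, a nuclease-dead Cas9 fused to a repressor domain, in a clonal line, and a second lentivirus brought either an empty guide plasmid (gCtl, 5 libraries) or the guide g1 (3 libraries) or g2 (2 libraries) against the long non-coding RNA LHFPL3-AS2. RNA was taken from cells seeded as monolayers, and 3′ end libraries of polyadenylated RNA were sequenced (QuantSeq), in which a transcript yields reads from near its 3′ end. As all groups descend from 1 clone and no label says that the libraries are separate infections or cultures, p-values measure the spread between these libraries, which may be technical. The comparisons asked how the cells labelled as knockdown differed from gCtl, with both guides together and with each guide alone.

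YAP1 and TAZ are related co-activators without a DNA-binding domain of their own. In the Hippo pathway the kinases STK3 and STK4 with SAV1 activate the kinases LATS1 and LATS2 with MOB1A and MOB1B, and these phosphorylate YAP1 and TAZ and keep them out of the nucleus. When the pathway is off, for example in spread or injured cells, the co-activators enter the nucleus and bind TEAD factors, which recognise a short DNA motif at genes for matricellular proteins (CTGF, CYR61) and for negative regulators of YAP1 and TAZ (AMOTL2, LATS2). In the intestinal epithelium YAP1 and TAZ are known for their part in regeneration after injury. The levels below are of RNA, so the phosphorylation and the place of the proteins were not measured.

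The libraries held 3838803 to 8730468 estimated counts. A library of each group stood apart in the number of genes with a count, gCtl replicate 3 (24407 genes), g1 replicate 3 (24940) and g2 replicate 2 (24609), while the other 7 had 22389 to 23547. The results were therefore also computed with these 3 left out together, an alternative chosen after seeing the data in which g2 keeps 1 library that is assumed to vary like the other groups, and the values are given where this changed a call of the 10 genes or a call with both guides. No such values are given for the splits of a gene by transcript or for antisense genes. The share of mitochondrial genes was 18.3% to 23.97% in gCtl, 19.0% to 20.6% in g1, and 16.8% and 12.0% in g2, and the 10 highest genes held 26.4% to 32.1%, 26.8% to 36.9%, and 42.7% and 38.0%. Of 11 markers of intestinal epithelium 10 were above 3 RPM (counts scaled to the library total) in 1 or more libraries of each group. EPCAM was at 670 to 872 RPM and KRT20 at 1.08 to 9.97 RPM, while SI, a brush border enzyme of mature enterocytes, stayed at 2.86 RPM or less. The summed level of 6 fibroblast markers was 4.49 to 10.7 RPM in gCtl, 8.10 to 11.3 in g1 and 6.37 to 8.66 in g2. That of 3 endothelial markers was 2.16 to 3.66, 4.93 to 10.1 and 2.20 to 4.53 RPM, and that of 4 immune markers 2.83 to 4.50, 1.84 to 2.86 and 0.410 to 0.653 RPM, and the part of these markers in the results was not tested. The targeted RNA LHFPL3-AS2 (chr7:104894628-104926645, minus strand, GRCh38) was measured on few counts, and no lower level under the guides was detected. Its level, in CPM (counts scaled to a common library size by the TMM method), was 1.66, 0.805, 3.61, 1.67 and 3.11 in gCtl, 2.94, 3.88 and 2.16 in g1, and 2.37 and 6.40 in g2. Its log2 fold change with both guides was 0.61 (SE 0.42, 95% interval -0.27 to 1.497, edgeR adjusted p = 0.381), so that each direction below is that of the libraries labelled g1 or g2.

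The TEAD motif was looked up in promoters because these genes are linked by TEAD binding. RefSeq promoter windows (GRCh38.p14, 250 bases before to 50 after a transcription start) were at hand for 7 of the 10 genes, 10 windows in all. The motif GGAATG, or CATTCC for the other strand, stood in 4 of these 10 windows and in 14.0% of all 35116 windows of this length. The CTGF window held it 3 times, which was so in 0.128% of all windows (45 windows). The 250 bases before the CTGF start, at chr6:131951373-131951622 on the minus strand, are shown 5′ to 3′ with the motif in capitals, since they hold all 3 copies.
CTGF: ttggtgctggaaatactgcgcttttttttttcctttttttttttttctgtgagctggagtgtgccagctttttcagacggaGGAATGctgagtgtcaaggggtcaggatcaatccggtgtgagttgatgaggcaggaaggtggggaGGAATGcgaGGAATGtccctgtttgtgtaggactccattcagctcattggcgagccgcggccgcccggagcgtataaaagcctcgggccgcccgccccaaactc
The copies began 169, 104 and 95 bases before the start.
YAP1, AMOTL2 and LATS2 had 1 copy each, shown in stretches of 30 bases in the direction of the gene, with the motif or its reverse complement in capitals.
YAP1: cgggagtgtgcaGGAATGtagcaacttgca
AMOTL2: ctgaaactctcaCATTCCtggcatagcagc
LATS2: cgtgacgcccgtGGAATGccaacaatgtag
The YAP1 stretch lies at chr11:102110273-102110302 on the plus strand, the AMOTL2 stretch at chr3:134374499-134374528 and the LATS2 stretch at chr13:21061560-21061589, both on the minus strand. The letters were not in the windows of WWTR1, TEAD2 and TEAD3. A match in these letters is a description and not a measured binding site.

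The levels of the genes differed over a wide range in gCtl. Scaled by transcript length and library total (TPM), YAP1 was highest, at 26.1 ± 5.79 (SD, n = 5), before WWTR1 at 14.6 ± 1.84, TEAD1 at 11.6 ± 1.55 and AMOTL2 at 8.51 ± 2.63. LATS2 followed at 5.19 ± 1.04 TPM, CYR61 at 4.39 ± 2.39, TEAD3 at 1.53 ± 1.02, TEAD4 at 0.763 ± 0.937, CTGF at 0.383 ± 0.194 and TEAD2 at 0.100 ± 0.224. In TPM each of the 4 highest genes stood above its next neighbour in 5 of 5 gCtl libraries. LATS2 stood above CYR61 in 3 of 5 by TPM, but in CPM it was higher in all, at 17.6 to 26.2 against 2.99 to 13.2. TEAD4 stood above CTGF in 2 of 5 by TPM, and their ranges in CPM overlapped as well. TEAD4 and CTGF were thus not separated by the spread between libraries. In g2 WWTR1 was at 5.35 ± 0.802 and TEAD1 at 12.3 ± 1.62 TPM (SD, n = 2), the reverse of their TPM order in gCtl. In CPM, however, TEAD1 was above WWTR1 in gCtl already, at 59.7 ± 7.98 and 41.0 ± 3.91. YAP1 was there at 60.6 ± 6.96 CPM, close to TEAD1. As reads of this protocol come from the 3′ end, dividing by length is approximate, and the order of these genes depends on it. Comparisons between groups below use CPM, apart from the share of TEAD1 among the TEAD genes.

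Of the 10 genes 7 passed the filter and were tested among 11640 protein-coding genes that exceeded 3 RPM in 2 or more of the 10 libraries. A gene was called when its adjusted p did not exceed 0.05 and its fold change reached 1.5. With both guides together against gCtl 0 of these 7 were called, where 19.2% of all genes tested were (edgeR quasi-likelihood test). Without adjustment 1 of the 7, YAP1, had a p under 0.05, and under the alternative tools, DESeq2 and limma, 0 were called too. With g1 alone 0 were called (background 16.8%), while limma called 1, CYR61, and 3 had an unadjusted p under 0.05. The backgrounds given are those of the edgeR calls. No share of all genes was counted for the unadjusted p, here or with both guides, so these counts have no background. With g2 alone 1 of 7 was called (background 23.7%) and between the guides 1 of 7 (background 4.98%), both times WWTR1. The median log2 fold change of the 7 was -0.02 with both guides, -0.12 with g1 and 0.40 with g2, against 0.02, 0.01 and 0.00 over all genes tested.

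WWTR1 (chr3:149517235-149736714, minus strand) fell with g2. Its level was 39.8, 47.6, 37.3, 39.3 and 41.0 CPM in gCtl, 48.7, 30.9 and 33.7 in g1, and 20.6 and 15.4 in g2. Both g2 libraries were thus lower than each of the other 8, while g1 lay on both sides of the gCtl range. The log2 fold change with g2 was -1.19 (SE 0.21, edgeR adjusted p = 0.0011), which is 2.28-fold lower. With g1 it was -0.12 (SE 0.17, edgeR adjusted p = 0.682), and its 95% interval ran from -0.48 to 0.25. The difference between the guides itself was -1.07 (SE 0.23, edgeR adjusted p = 0.0127). The call between guides was lost without g1 replicate 1 (-0.85, adjusted p = 0.0559) and without g2 replicate 2 (-0.85, adjusted p = 0.0902). With the 3 libraries of most genes left out together, WWTR1 was still called with g2 (-1.02, adjusted p = 0.0295) but not between the guides (-0.93, adjusted p = 0.0978). With both guides together the log2 fold change was -0.46 (SE 0.24, adjusted p = 0.170), and without g1 replicate 1, the highest library, it was called (-0.70, adjusted p = 0.0259). The 2 g2 libraries also had the lowest mitochondrial shares and the highest shares of the 10 highest genes, and the part of this in the result was not tested. In RNA of a whole culture, fewer cells with a transcript and less of it per cell cannot be told apart.

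The WWTR1 counts were split by Kallisto over 4 of its 12 annotated transcripts. The main coding transcript WWTR1-001 held 80.2% of them, and the non-coding WWTR1-002, which ends far upstream in the gene, 19.2%. The coding transcripts alone were at 30.8 ± 4.42 CPM in gCtl (SD, n = 5), 33.4 ± 8.84 in g1 (n = 3) and 14.2 ± 3.42 in g2 (n = 2). In a fit with these alone, added after seeing the data, WWTR1 was lower with g2 by -1.12 on the log2 scale (SE 0.24, edgeR adjusted p = 0.0036) and the guides differed by -1.24 (SE 0.25, adjusted p = 0.0107). WWTR1-002 was at 10.4, 13.0, 9.24, 13.5 and 4.57 CPM in gCtl, 5.06, 2.95 and 4.63 in g1, and 3.95 and 3.55 in g2. The groups overlap through gCtl replicate 5 and g1, and the mean of both guides was 4.03 ± 0.841 against 10.1 ± 3.58 (exact two-sided permutation test, p = 0.0238, n = 5 and 5; this split was chosen after its values were seen). The antisense gene WWTR1-AS1, which overlaps WWTR1 on the other strand, was not called in any comparison (0.840 ± 0.328 CPM in gCtl and 1.82 ± 0.806 with both guides).

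YAP1 (chr11:102110461-102233423, plus strand) was higher under both guides by less than the fold needed for a call. Its level was 63.9, 49.3, 65.5, 58.7 and 65.8 CPM in gCtl, 72.6, 63.2 and 110.6 in g1, and 76.7 and 89.3 in g2. Of the 5 guide libraries 4 were above the gCtl range and g1 replicate 2 was inside it. With both guides the log2 fold change was 0.45 (SE 0.16, edgeR adjusted p = 0.0483), a 1.36-fold difference, where 23.6% of all genes tested had an adjusted p of 0.05 or less. With g1 it was 0.44 (SE 0.17, adjusted p = 0.0817; called without g1 replicate 2 at 0.60, adjusted p = 0.0393, and 0.15, adjusted p = 0.592, without g1 replicate 3) and with g2 0.45 (SE 0.20, adjusted p = 0.0981). The guides differed by 0.01 (95% interval -0.45 to 0.47). The adjusted p with both guides was above 0.05 under 12 of 17 other scalings, tools, filters and left-out libraries, with a range of 0.0255 to 0.137, the highest without g1 replicate 3. With the 3 libraries of most genes left out together the value was 0.25 (adjusted p = 0.310).

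The YAP1 counts came from 2 groups of 3′ ends. The distal end at chr11:102233423 is shared by 4 annotated transcripts, and 6 others end 2831 to 3483 bases upstream of it, at chr11:102229940-102230592. Transcripts with the distal end were at 58.8, 32.4, 41.0, 48.9 and 30.6 CPM in gCtl, 33.3, 31.6 and 41.8 in g1, and 48.3 and 23.2 in g2. These groups overlap, with means of 42.3 ± 11.8 in gCtl and 35.6 ± 9.69 with both guides (exact two-sided permutation test, p = 0.397, n = 5 and 5). Transcripts with upstream ends were at 4.09, 16.9, 24.1, 9.55 and 34.8 CPM in gCtl, 39.2, 30.9 and 67.4 in g1, and 26.9 and 66.2 in g2. Here 3 of 5 guide libraries lay above the gCtl range, with means of 46.1 ± 19.4 under the guides and 17.9 ± 12.1 in gCtl (exact permutation p = 0.0317). The highest values, 67.4 and 66.2, were those of g1 replicate 3 and g2 replicate 2, which stood apart in the number of genes. The permutation tests of the ends were not repeated without these libraries. The share of the distal end was 70.0% ± 17.9 in gCtl, 44.5% ± 6.22 in g1 and 44.5% ± 26.2 in g2 (both guides against gCtl, exact permutation p = 0.0476). The ends were compared after their values were seen, and with 5 against 5 libraries the smallest p this test can give is 0.00794.

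The upstream YAP1 ends lie within an antisense gene. RP11-864G5.3 (chr11:102229851-102230922 under the later name AP000942.2, minus strand) was at 6.57, 3.43, 6.40, 3.13 and 6.47 CPM in gCtl, 8.34, 10.8 and 16.3 in g1, and 13.4 and 23.1 in g2. All 5 guide libraries were above all 5 gCtl libraries, and its log2 fold change was 1.41 with both guides (SE 0.29, edgeR adjusted p = 0.0039, in the fit over 23413 genes of all biotypes, where 11.0% of the genes were called). Its highest values, 16.3 and 23.1 CPM, were again those of g1 replicate 3 and g2 replicate 2. A value with the libraries of most genes left out is not given for it. The counting is not stated to use strand, so reads of the upstream YAP1 ends and of this antisense RNA cannot be told apart. With the distal-end transcripts alone, a fit added after seeing the data, YAP1 was at -0.24 on the log2 scale with both guides (SE 0.21, edgeR adjusted p = 0.435), the opposite direction of the whole gene. Its value was -0.24 with g1 (edgeR adjusted p = 0.527) and -0.24 with g2 (edgeR adjusted p = 0.553).

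Among the TEAD genes TEAD1 (chr11:12674591-12944483, plus strand) made up 79.2% to 88.7% of the summed TEAD TPM in gCtl, 88.7% to 95.1% in g1, and 82.3% and 84.9% in g2. These shares depend on the division by transcript length. In gCtl replicate 5, the lowest, 5.48 TEAD4 counts fell on a transcript of 567 bases, while the main TEAD1 transcript has 8477. Mean CPM in gCtl, without that division, was 59.7 for TEAD1, 3.09 for TEAD3, 0.539 for TEAD4 and 0.070 for TEAD2. By library TEAD1 was at 59.7, 50.1, 59.5, 72.2 and 57.2 CPM in gCtl, 45.0, 36.7 and 66.2 in g1, and 85.0 and 72.8 in g2. In g2 1 library was just above the highest gCtl library and the other at 85.0, and g1 reached under the lowest. TEAD1 was not called, with log2 fold changes of -0.27 with g1 (SE 0.18, edgeR adjusted p = 0.322) and 0.40 with g2 (SE 0.20, adjusted p = 0.147). Between the guides TEAD1 differed by 0.67 (SE 0.22, unadjusted p = 0.0076, edgeR adjusted p = 0.0903), and this was called without g1 replicate 3 (0.96, adjusted p = 0.0139) and with the 3 libraries of most genes left out together (1.08, adjusted p = 0.0274).

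TEAD3 (chr6:35473597-35497076, minus strand) was low, at 4.25, 1.47, 2.62, 6.26 and 0.880 CPM in gCtl, 0.833, 0.844 and 1.46 in g1, and 6.10 and 2.47 in g2. These values rest on 4 to 34 counts per library. TEAD3 exceeded 3 RPM only in gCtl replicate 1 (4.43), gCtl replicate 4 (6.50) and g2 replicate 1 (5.55). The g1 libraries were at 0.860 to 1.37 RPM. TEAD3 thus passed the filter through gCtl and g2, which favours a lower value with g1 and a higher one in g2 against g1. The g1 libraries lay at the foot of the gCtl range, with a log2 fold change of -1.46 (SE 0.62, edgeR adjusted p = 0.110; called without gCtl replicate 5 at -1.71, adjusted p = 0.0398), and both g2 libraries lay above them, with a difference between the guides of 1.95 (SE 0.70, adjusted p = 0.123). TEAD4 (chr12:2959330-3040673, plus strand) had 0 to 8 counts in a library and 31 in all, and its log2 fold change with both guides was -0.16 (95% interval -1.87 to 1.56). TEAD2 (chr19:49340595-49362457, minus strand) had at most 2.06 counts in any library. A count of 0 allows up to 3 counts, which is 0.344 to 0.781 RPM depending on the library, so differences of TEAD2 were not detectable at this depth. This limit covers counting error only.

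CTGF (also called CCN2, chr6:131948176-131951373, minus strand) and CYR61 (CCN1, chr1:85580761-85583962, plus strand) encode secreted matricellular proteins and are the most used readouts of YAP1 and TAZ activity. CTGF had 4, 1, 3, 4 and 4 counts in gCtl, 10.2, 2 and 15.0 in g1, and 7.01 and 21.0 in g2. In CPM this was at most 0.9996 in gCtl and 0.422 to 3.05 under the guides, with 4 of 5 guide libraries above the gCtl range. CTGF missed the filter on low levels, and in the fit over 23413 genes its log2 fold change was 1.27 with both guides (SE 0.58, unadjusted p = 0.0405, edgeR adjusted p = 0.165), 0.99 with g1 (edgeR adjusted p = 0.402) and 1.62 with g2 (edgeR adjusted p = 0.130). It was thus not called, on 16.0 counts in gCtl and 55.2 under the guides. The highest guide counts, 15.0 and 21.0, were those of g1 replicate 3 and g2 replicate 2. With the 3 libraries of most genes left out together, CTGF was at 0.64 with both guides (SE 0.79, edgeR adjusted p = 0.73).

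CYR61 was at 13.2, 4.59, 9.24, 7.70 and 2.99 CPM in gCtl, 1.83, 0.211 and 5.72 in g1, and 9.32 and 5.67 in g2. The lowest values were those of g1 replicates 1 and 2, and both g2 libraries were inside the gCtl range. Its log2 fold change was -1.40 with g1 (SE 0.58, unadjusted p = 0.0289, edgeR adjusted p = 0.102) and 0.00 with g2 (SE 0.58, 95% interval -1.23 to 1.23). The g1 value was called by limma (-1.50, adjusted p = 0.0316) and without gCtl replicate 5 (-1.61, adjusted p = 0.0480) or g1 replicate 3 (-2.77, adjusted p = 0.0182), and with the 3 libraries of most genes left out together (-2.67, adjusted p = 0.0313). Between the guides CYR61 differed by 1.40 (SE 0.68, edgeR adjusted p = 0.254), which was called without g1 replicate 3 (2.77, adjusted p = 0.0466). CTGF and CYR61, as measured with g1, therefore had values of opposite sign, of which neither was called.

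AMOTL2 (chr3:134355874-134375479, minus strand), an angiomotin that holds YAP1 at cell junctions, had the highest level of the 4 target genes. It was at 29.5, 17.3, 39.4, 30.6 and 23.4 CPM in gCtl, 20.2, 18.6 and 41.3 in g1, and 30.5 and 52.8 in g2. The highest AMOTL2 value of each group was that of its library with the most genes detected. The libraries of all groups overlapped, and the log2 fold change with both guides was 0.23 (95% interval -0.36 to 0.82, edgeR adjusted p = 0.580) and -0.12 (adjusted p = 0.791) with those 3 libraries left out. LATS2 (chr13:20973032-21061547, minus strand), a kinase that inhibits YAP1 and is itself a target, was at 26.2, 17.6, 20.4, 25.3 and 18.3 CPM in gCtl, 19.7, 19.0 and 30.2 in g1, and 23.0 and 13.5 in g2. With both guides LATS2 differed by -0.02 (95% interval -0.46 to 0.41, adjusted p = 0.945), an interval that holds no change larger than 1.38-fold.

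**Figure D1:**
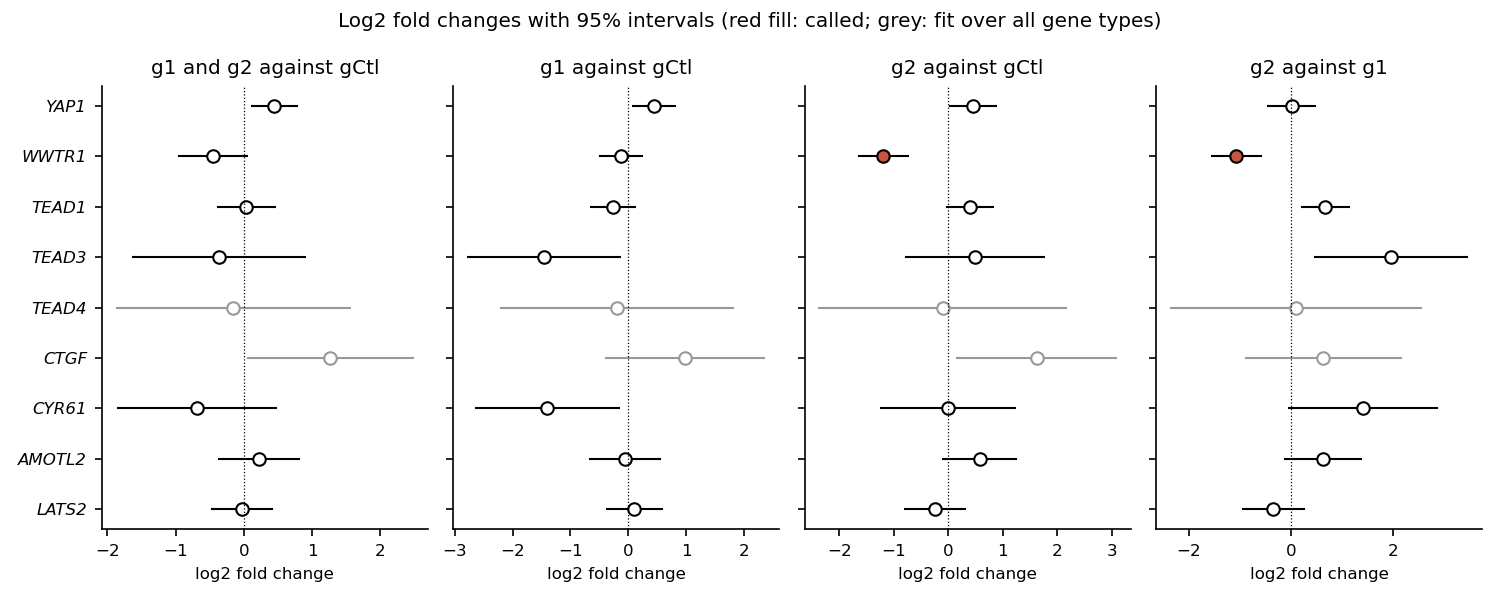
Log2 fold changes (horizontal axis) with 95% intervals for 9 of the 10 genes in 4 comparisons; a red fill marks a called gene and grey the fit over genes of all biotypes, used for TEAD4 and CTGF, while TEAD2 could not be fitted. WWTR1 is called in g2 against gCtl at -1.19 and in g2 against g1 at -1.07.

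The libraries of a pair of groups were also compared by overlap alone. With g2 against gCtl 3 of the 7 tested genes did not overlap, YAP1, WWTR1 and TEAD1, where 38.0% of all genes tested did not. Between the guides it was 3 of 7, WWTR1, TEAD1 and TEAD3 (background 32.9%). With both guides 0 of 7 were free of overlap (background 15.4%), and with g1 0 of 7 (background 26.6%).

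Other genes of the pathway were read from a list of 24 genes of the Hippo cascade and its YAP1/TAZ regulators, of which 21 were tested. With both guides 2 were called higher (background for higher calls 8.14%) and 0 lower (background 11.0%), with a median log2 fold change of 0.13. SAV1, the scaffold of the STK3 and STK4 kinases, was at 15.6 to 24.6 CPM in gCtl, 28.7 to 63.7 in g1 and 38.6 to 50.1 in g2. It did not overlap gCtl with either guide, and its log2 fold change was 1.14 with both guides (SE 0.20, edgeR adjusted p = 0.0012). Its call with g2 alone (1.14) was lost without g2 replicate 2 (0.94, adjusted p = 0.0581). VGLL3, a co-factor that binds TEAD factors, was at 9.10 to 10.8 CPM in gCtl, 10.7 to 38.3 in g1 and 21.1 to 25.7 in g2. It rose by 1.08 on the log2 scale (SE 0.30, adjusted p = 0.0170), a call that was lost without g1 replicate 3 (0.75, adjusted p = 0.0530) and with the 3 libraries of most genes left out together (0.51, adjusted p = 0.250).

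With g2 alone 5 of the 21 were called higher (background 10.7%) and 1 lower (background 13.0%), and with g1 alone 2 higher (background 6.81%) and 0 lower (background 9.95%). The calls with g1 were SAV1 and VGLL3, of which VGLL3 was at 0.10 without g1 replicate 3 (adjusted p = 0.808). The call of VGLL3 was lost with g1 under 9 and with g2 under 3 of the other tools, filters and left-out libraries, among these without g2 replicate 2 (adjusted p = 0.161). The further genes called with g2 are named after seeing their values. MOB1B, a co-activator of the LATS kinases, was at 5.88 to 11.8 CPM in gCtl, 7.11 to 8.65 in g1 and 16.7 to 21.2 in g2. It rose with g2 by 1.25 (SE 0.26, edgeR adjusted p = 0.0034) and differed between the guides by 1.27 (SE 0.30, adjusted p = 0.0215), the latter a call that was lost without g1 replicate 1, g1 replicate 3 or g2 replicate 1 and with the 3 libraries of most genes left out together (1.38, adjusted p = 0.0806). MOB1A rose with g2 by 0.68 (SE 0.17, adjusted p = 0.0096) and LIMD1, an inhibitor of the LATS kinases, by 0.75 (SE 0.19, adjusted p = 0.0102). WWC1 (KIBRA), an activator of the cascade, fell by 0.63 on the log2 scale with g2 (SE 0.19, adjusted p = 0.0230). Each of MOB1A, LIMD1 and WWC1 lost its call when 1 of the g2 libraries was left out. MOB1A also lost it under library totals (0.52) and limma (0.50), and LIMD1 under limma (0.54, adjusted p = 0.0613). WWC1 lost it without gCtl replicate 4 (-0.59, edgeR adjusted p = 0.0505) or gCtl replicate 5 (-0.56) as well. The kinases STK3, STK4 and LATS1 were not called, with log2 fold changes of 0.13, 0.09 and 0.18 with both guides.

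Of 18 further genes known as targets of YAP1, TAZ and TEAD, 14 were tested. With both guides 1 was called higher (background 8.14%) and 2 lower (background 11.0%), shares close to those of all genes, at a median log2 fold change of 0.23. MYOF, a membrane repair protein, was at 25.3 to 38.7 CPM in gCtl, 43.5 to 145.8 in g1 and 92.0 to 92.3 in g2, without overlap, and rose by 1.53 (SE 0.25, edgeR adjusted p = 8.5e-04). TGFB2, a growth factor of the TGF-beta family, was at 3.76 to 4.34 CPM in gCtl, 0.633 to 2.33 in g1 and 0.538 to 0.727 in g2, and was called lower, at -1.90 (SE 0.40, adjusted p = 0.0039). TGFB2 exceeded 3 RPM in 5 gCtl libraries and in 0 guide libraries and so passed the filter through gCtl alone, which favours a lower value under the guides. In the fit without that filter it was at -1.94 (SE 0.41, adjusted p = 0.0048). Its call with g1 was lost without g1 replicate 2 (-1.27, adjusted p = 0.0783) or g1 replicate 3 (-1.41, adjusted p = 0.0837), and that with both guides when the 3 libraries of most genes were left out together (-1.78, adjusted p = 0.0539). CCDC80, a secreted matrix protein, was at 25.4 to 43.8 CPM in gCtl, 13.9 to 17.5 in g1 and 8.66 to 16.3 in g2, and fell by 1.24 (SE 0.20, adjusted p = 8.0e-04). The count of higher calls in this list moved to 3 without g1 replicate 2.

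ANKRD1, a muscle ankyrin repeat protein much used as a YAP1 readout, was not called with both guides (0.92, SE 0.36, edgeR adjusted p = 0.0741). It was at 41.1 to 78.5 CPM in gCtl, 58.7 to 270.7 in g1 and 53.2 to 86.9 in g2. The groups overlapped, and its call with g1 (1.27, adjusted p = 0.0136) was lost without g1 replicate 3 (0.55, adjusted p = 0.208). With g2 alone 3 targets were called higher (background 10.7%) and 3 lower (background 13.0%), among them, named after seeing the values, AXL and NT5E higher and CRIM1 lower. AXL, a receptor tyrosine kinase, was at 3.80 to 9.40 CPM in gCtl, 3.48 to 10.7 in g1 and 13.4 to 34.7 in g2. Its log2 fold change was 2.06 with g2 (SE 0.41, adjusted p = 0.0022) and 0.18 with g1 (adjusted p = 0.789), and the guides differed by 1.88 (SE 0.45, adjusted p = 0.0264). Without g2 replicate 1 the AXL values were 1.22 with g2 (adjusted p = 0.0710) and 1.05 between the guides (adjusted p = 0.225), and neither was called. The difference between the guides was also not called without g1 replicate 1 (1.70, adjusted p = 0.103) or g1 replicate 2 (1.62, adjusted p = 0.0941). NT5E lost its call with g2 without g2 replicate 1 (0.87, adjusted p = 0.339), and CRIM1 without g2 replicate 2 (-0.41, adjusted p = 0.320) and without gCtl replicate 3 or 4.

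**Figure D2:**
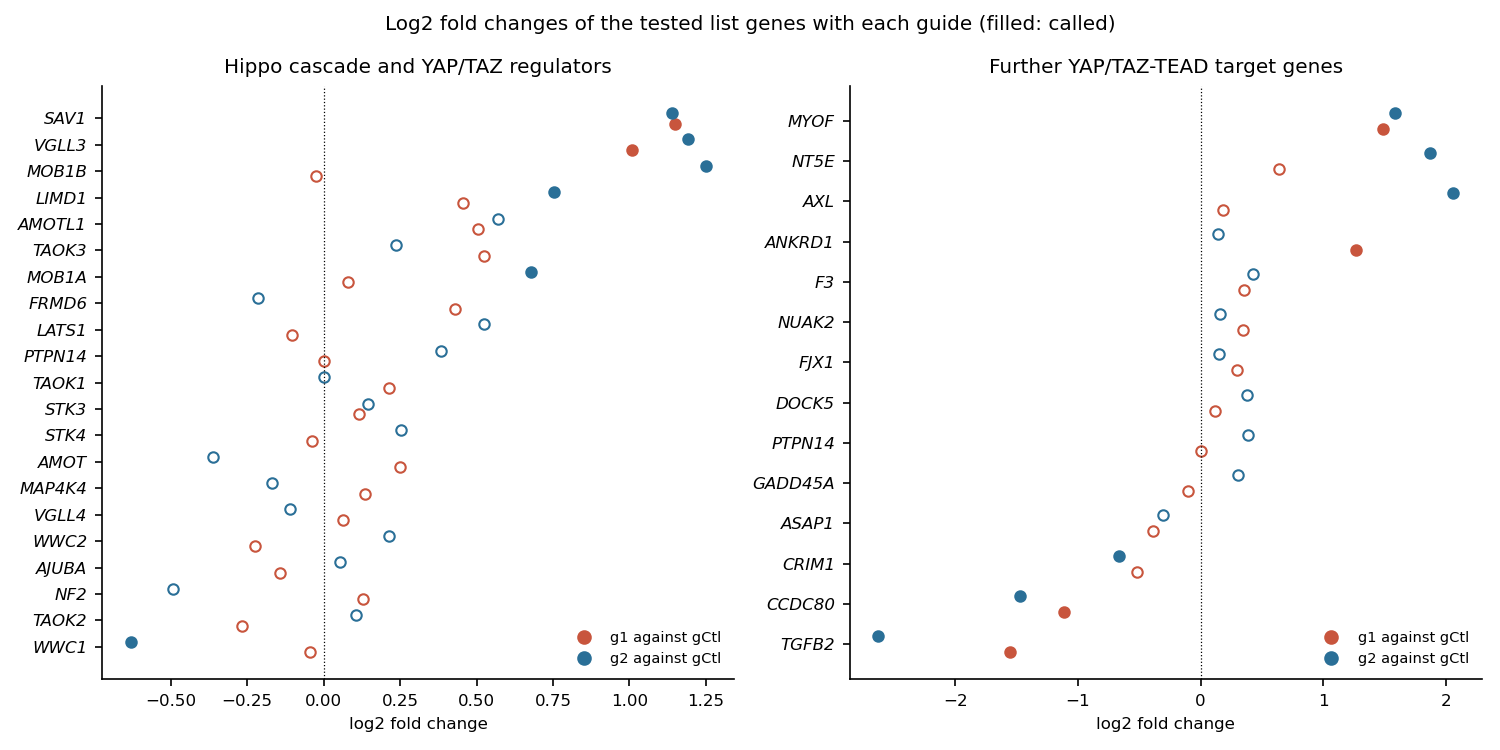
Log2 fold changes (horizontal axis) of the tested genes of the Hippo list and of the list of further target genes, for g1 and g2 each against gCtl; filled points are called. SAV1, VGLL3 and MYOF are filled to the right and TGFB2 and CCDC80 to the left with g1 and with g2, of which VGLL3 and TGFB2 lost their g1 calls without single libraries. MOB1A, MOB1B, LIMD1, WWC1, AXL, NT5E and CRIM1 are filled with g2 alone and ANKRD1 with g1 alone. Of those filled with g2 alone, each but MOB1B lost its call without 1 of the g2 libraries, as did SAV1 and VGLL3 with g2. ANKRD1 lost its call without g1 replicate 3.

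Of the other CCN family genes, NOV, WISP1, WISP2 and WISP3, 1 of 4 was tested. WISP2 was at 3.01 to 6.43 CPM in gCtl, 4.37 to 5.88 in g1 and 1.66 to 3.44 in g2 and was not called (-0.33 with both guides, edgeR adjusted p = 0.495). WISP3 missed the filter, at 0.909 ± 0.547 CPM in gCtl (SD, n = 5). Of 6 genes linked to YAP1 in intestinal regeneration 4 were tested and 1 was called with both guides (background 19.2%). AREG, a ligand of the EGF receptor, was at 210.2 to 322.9 CPM in gCtl, 343.6 to 548.9 in g1 and 355.7 to 460.1 in g2. It did not overlap gCtl and rose by 0.76 (SE 0.17, adjusted p = 0.0046), a call that was lost with the 3 libraries of most genes left out together (0.56, adjusted p = 0.0678), while EREG, a ligand of the same receptor, was at -0.43 and was not called. CLU, a secreted chaperone that marks regenerating epithelium, was at -0.43 with both guides (adjusted p = 0.131), and was called lower with g2 (-0.79, SE 0.24, edgeR adjusted p = 0.0249). The g2 call of CLU was lost without g2 replicate 1 (-0.37) and with the length trend removed (-0.61, edgeR adjusted p = 0.0858).

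The tested genes most alike to YAP1 over the 10 libraries, by Pearson r of log2(CPM + 1), were UGP2 (0.963), BIRC3 (0.955) and ATF3 (0.954). For AMOTL2 they were ITGAX (0.964), IGHMBP2 (0.919) and POLR1C (0.901). These values describe 10 libraries that share their depth and group, and were picked as the highest of all genes tested.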

How the data were processed

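Per the labels, 10 QuantSeq 3′ mRNA libraries of Caco-2 cells (5 gCtl, 3 g1, 2 g2) were sequenced single-end. The authors quantified the reads with Kallisto (version 42.5 in the submitters' processing notes) against GENCODE v24 transcripts and deposited 1 table of estimated counts per library, not normalized and not pooled. Counting with the strand is not stated. The choice of genes and lists was made with earlier results of these data known. Libraries were grouped by the label alone, and replicate numbers only name them.

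Estimated counts were added up per gene and rounded. The 11640 protein-coding genes that exceeded 3 RPM in 20% of libraries or more were fitted with edgeR 4.0.16 in R 4.3.3 (TMM, glmQLFit, glmQLFTest), as 2 groups and as 3 groups, with Benjamini-Hochberg adjustment over all genes tested. CTGF, TEAD4, LHFPL3-AS2 and antisense genes were fitted over all genes with at least 10 counts. CPM uses TMM-adjusted totals, and TPM was computed here from annotated transcript lengths. Replicate spread limits most comparisons, and at 3838803 to 8730468 counts per library, 1 to 3 counts are near the limit of detection. Single values were compared by exact permutation tests.

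Named were the 10 genes, LHFPL3-AS2, the list genes called with both guides (at most 6 per list, or the 2 highest where none was called) and the 3 genes most alike to YAP1 and to the highest target gene. Alternatives were DESeq2 1.42.0 and its size factors, library totals, limma 3.58.1 on log2(RPM + 1), other filters, a length trend removed (loess span 0.5) and leaving out each library. Added after seeing the data were fits with certain YAP1 and WWTR1 transcripts alone and without the library of most genes in each group. The scripts were tested on simulated data. Gene coordinates are GENCODE v29 on GRCh38, promoters are RefSeq on GRCh38.p14. Guide and protein sequences were not used here.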

Additional observations from a re-analysis of the deposited data

Results flagged for a closer look

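TEAD2 in gCtl replicate 3 was at 0.352 CPM, and the other 4 gCtl libraries were at 0. It rests on 2.02 counts, within the 3 counts that a count of 0 allows, so it was not told apart from those libraries at this depth, and any value above 0 beside 4 at 0 is picked out by the measure used. Of 38 groups of 5 libraries tested in this way 1 was picked out, and chance alone picks out about 1 in 20.

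WWTR1 differed between the guides, by a log2 fold change of -1.07 in g2 against g1. MOB1B (1.27) and AXL (1.88), both from the lists of the pathway, differed between the guides as well. All 3 were tested as the difference itself, in the fit with 3 groups, and each call was lost when certain single libraries were left out.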

How the results depend on the processing

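WWTR1 stayed lower and called with g2 against gCtl under all alternatives run, with log2 fold changes from -1.35 to -1.02 between settings and from -1.42 to -0.99 when single libraries were left out. With both guides the number of the 7 genes called was 0 under every other scaling, filter and tool and 0 to 1 without single libraries. With g1 it was 1 under limma on log2(RPM + 1) and 0 to 2 without single libraries. With g2 it was 1 throughout the alternatives, and between the guides 0 to 3 without single libraries. Among the target genes 1 to 3 were called higher with both guides without single libraries. Without single libraries, the log2 fold change of TEAD4 ran from -0.58 to 0.39 with both guides, from -1.44 to 0.35 with g1, from -1.52 to 0.55 with g2 and from -1.33 to 1.34 between the guides, that of CTGF between the guides from -0.083 to 1.11, and that of LHFPL3-AS2 from -0.32 to 1.06.

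Several small differences turned sign. With both guides TEAD1 was at -0.072 under library totals, -0.11 under limma, -0.011 without a filter and -0.12 with the length trend removed. CYR61 with g2 was at -0.17 under library totals, -0.045 under limma, -0.0027 under filterByExpr and -0.066 without a filter. YAP1 between the guides was at -0.088, -0.061 and -0.028 under library totals, limma and no filter. With the distal end alone, an alternative chosen after seeing the data, YAP1 was at -0.24 with both guides, -0.24 with g1, -0.24 with g2 and -0.0045 between the guides, and with coding transcripts alone WWTR1 was at 0.12 with g1. The cause was not tested. Library totals moved the median of all genes by -0.16 with g2.

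With the library of most genes in each group left out together (gCtl replicate 3, g1 replicate 3, g2 replicate 2), an alternative chosen after seeing the data, 1 gene was called with g1 (CYR61), 1 of the Hippo list higher, 1 of the target list lower and 0 of the regeneration list higher. TEAD1 was at -0.11 and AMOTL2 at -0.12 with both guides, LATS2 at -0.18 with g1, 0.087 with g2 and 0.27 between the guides, TEAD4 at -0.083 and LHFPL3-AS2 at -0.51 between the guides. Of all genes 1048 were called with both guides in this way (2232 with all libraries) and 1409 with g2.

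Leaving out single libraries gave ranges that cross 0 for genes not called. With both guides they were -0.12 to 0.17 for TEAD1, -1.06 to 0.055 for TEAD3, -0.016 to 0.39 for AMOTL2 and -0.20 to 0.096 for LATS2. With g1 they were -0.34 to 0.0032 for WWTR1, -0.55 to 0.14 for AMOTL2 and -0.17 to 0.22 for LATS2. With g2 they were -0.28 to 1.03 for TEAD3, -0.40 to 0.33 for CYR61 and -0.67 to 0.10 for LATS2. Between the guides they were -0.14 to 0.30 for YAP1 and -0.77 to 0.0063 for LATS2. Between 1254 and 2262 of all genes were called with g1 in this way (1951 with all libraries), 1503 to 3125 with g2 (2756) and 266 to 866 between the guides (580).

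The labels carry no replicate numbers, and no paired or blocked analysis was run. The 3 libraries with most genes, gCtl replicate 3, g1 replicate 3 and g2 replicate 2, are listed one after the other in the series. Of their transcripts with a count, 77.1%, 77.2% and 77.0% had one that was not whole, against 75.0% to 76.0% in the other libraries. Whether these 3 were handled together is not stated, and its part in the results was not tested. With 2 libraries, g2 borrows its spread from the other groups.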
